A study of Mus musculus with 2 samples.

Results

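T cells lacking Cd4 and Cd8 transcripts made up 293 of the 1132 T cells, and of the 14022 filtered cells, in single-cell RNA libraries of mouse pancreatic tumors. They were chosen by their counts of unique molecular identifiers (UMIs, each standing for 1 captured transcript). Barcodes counted as cells had 1000 or more UMIs from 200 or more genes, of which mitochondrial genes gave no more than 20%. It then needed at least 3 UMIs of the CD3 genes Cd3e, Cd3d and Cd3g together, none of Cd79a (B cells) or C1qa (macrophages), and under 3% of its UMIs from the neutrophil genes S100a8 and S100a9. The cells that passed these steps are called CD3-gated T cells, and those without any UMI of Cd4, Cd8a or Cd8b1 are the coreceptor-negative cells described here. CD3-gated cells with a Cd4 UMI only (361 cells) are called CD4-gated and those with a Cd8a or Cd8b1 UMI only (454 cells) CD8-gated, while 24 cells held both.

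The study compared mice with pancreatic tumors given PBS with mice given cmExoaCD11b, exosomes from mouse embryonic fibroblasts that carry IL-12 mRNA and cGAMP, the agonist of the DNA-sensing adaptor STING, and that bear an antibody to CD11b. Immune cells were collected 48 h after treatment, and cells of 3 mice were pooled into 1 library per group. The sample labels give no strain, sex or age. With 1 library per group there was no replicate check and no test between treatments: intervals below are 95% intervals that cover counting error only, and treatment, mice and library preparation cannot be told apart.

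Conventional T cells recognise antigen with an alpha-beta receptor and use CD4 or CD8 as a coreceptor. Gamma-delta T cells, which rearrange the Tcrd and Tcrg loci and keep the delta constant gene Trdc, mostly lack both coreceptors, as do some natural killer T cells and other innate-like cells that depend on the transcription factor PLZF (Zbtb16). In mice, some gamma-delta cells are set in the thymus to make IL-17 and express Rora, Il23r, Blk and Cd163l1, and others take on a cytotoxic, interferon-gamma program. A T cell can also lack coreceptor UMIs because a few transcripts of Cd4 or Cd8 escaped capture.

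The PBS library held 644248 barcodes and 67143628 UMIs, of which 6904 cells passed the filters, and the cmExoaCD11b library held 723594 barcodes and 81288480 UMIs, with 7118 cells passing. In the PBS library 75 of 334 CD3-gated T cells were coreceptor-negative, a share of 22.5% (18.1 to 27.3, exact Clopper-Pearson interval), and in the cmExoaCD11b library 218 of 798 were, a share of 27.3% (24.3 to 30.6). The ratio of the shares was 1.22 (0.932 to 1.60), so they did not differ beyond counting error. Relative to all filtered cells, coreceptor-negative cells were 1.09% in PBS and 3.06% in cmExoaCD11b, a ratio of 2.82 (2.16 to 3.72). The corresponding ratio was 1.74 (1.40 to 2.18) for CD4-gated cells, 2.61 (2.12 to 3.24) for CD8-gated cells and 2.32 (2.04 to 2.64) for CD3-gated cells as a whole. Each of these T cell shares was higher in the treated library, and shares of a library also depend on which other cells were recovered.

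Coreceptor-negative cells were shallower than the other T cells. Their UMI totals ran from 1194 through a median of 3831 to 9817 in PBS, and from 1166 through a median of 3817 to 59715 in cmExoaCD11b. The median was 5302 UMIs in PBS and 4873.5 in cmExoaCD11b for CD4-gated cells, and 5773 and 4524 for CD8-gated cells. At the edges of the gate, 12 coreceptor-negative cells of PBS and 40 of cmExoaCD11b had exactly 3 CD3 UMIs, while 19 and 37 cells with 2 CD3 UMIs were left outside, and 76 and 164 T cells were left out for exactly 1 coreceptor UMI. The libraries shared 15 barcodes among all filtered cells and 0 among coreceptor-negative cells, while 1 coreceptor-negative cell had the barcode of another filtered cell in the other library. Doublets were not removed by the gate. Leaving out the cells with the highest doublet scores took out 3 coreceptor-negative cells of PBS and 6 of cmExoaCD11b.

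The identity of the cells as T cells was checked on genes that the gate did not use. Lck, the kinase that starts receptor signalling, was detected in 80.0% of coreceptor-negative cells in PBS and 76.6% in cmExoaCD11b, and Cd247, the zeta chain of the receptor complex, in 72.0% and 74.3%. B-lineage cells, which should lack these genes and served as the background for free RNA (256 cells with a median of 5230 UMIs in PBS, 337 cells with a median of 7562 in cmExoaCD11b), showed Lck in 8.20% and 7.72% and Cd247 in 1.17% and 2.67%. After thinning every cell to 1000 UMIs, Lck was seen in 45.3% and 35.3% of the coreceptor-negative cells against 1.56% and 0.593% of the B-lineage cells. One cell went against the label. The largest coreceptor-negative cell of cmExoaCD11b, with 59715 UMIs, held 11 CD3 UMIs and 13 Trdc UMIs beside 659 UMIs of Elane, 458 of Prtn3, 394 of Mpo and 351 of Ctsg, the granule enzymes of neutrophil precursors. It was 1 of 9 coreceptor-negative cells with at least 10000 UMIs, which were all in that library and held 17.1% of its coreceptor-negative UMIs, and the results below that rest most on these cells are also given without them.

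The share of T cells without a coreceptor UMI depended on depth. Over both libraries it was 39.7% among T cells of 1000 to 1999 UMIs, 45.0% at 2000 to 2999, 31.9% at 3000 to 3999, 23.1% at 4000 to 5999 and 16.8% at 6000 to 9999. Among T cells of 10000 or more UMIs it was 7.69%, made of 0 of 38 cells in PBS (which allows up to 9.25%) and 9 of 79 in cmExoaCD11b. In each of the lower 5 depth ranges the intervals of the libraries overlapped. When every cell was first thinned to 1000 UMIs and then gated, 58.2% (92 of 158) of T cells in PBS and 56.4% (162 of 287) in cmExoaCD11b lacked a coreceptor UMI.

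**Figure D1:**
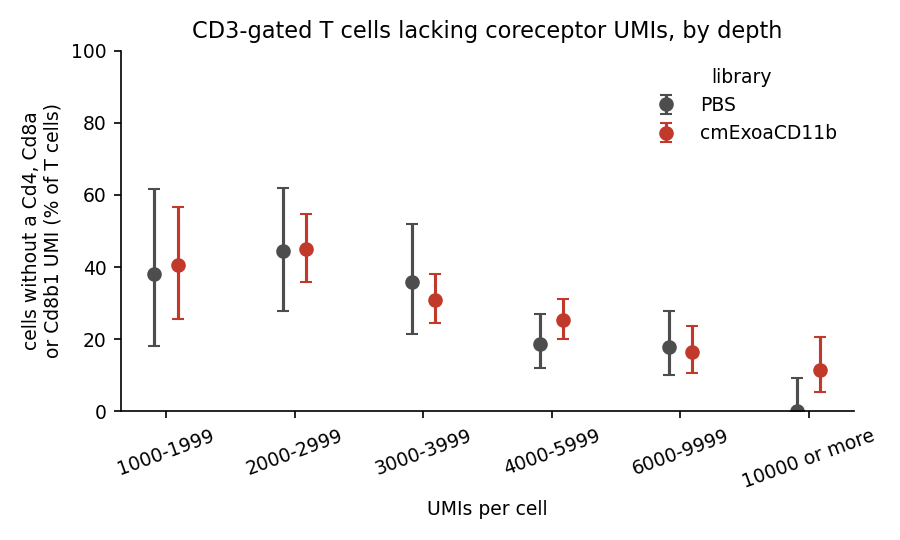
Share of CD3-gated T cells without a Cd4, Cd8a or Cd8b1 UMI (percent, y axis) by UMIs per cell (x axis), for PBS (grey) and cmExoaCD11b (red); bars are exact 95% binomial intervals, which cover counting error only. Below 3000 UMIs the shares lay between 38.1% and 45.1%, and from 6000 to 9999 UMIs at 17.7% in PBS and 16.3% in cmExoaCD11b.

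Detected coreceptor counts were low even in cells that had them. CD4-gated cells held a median of 2 Cd4 UMIs in both libraries, and 48.8% of them in PBS and 47.4% in cmExoaCD11b rested on a single Cd4 UMI. CD8-gated cells held more, with a median of 7 Cd8a and Cd8b1 UMIs in PBS and 4 in cmExoaCD11b. Cd40lg, the ligand of CD40 on helper T cells, gives an outside view of the CD4 side: among T cells with a Cd40lg UMI and no Cd8 UMI, 21 of 70 in PBS (30%) and 40 of 123 in cmExoaCD11b (32.5%) had no Cd4 UMI. Foxp3, the transcription factor of regulatory T cells, marked 3 such cells in PBS, of which 3 lacked Cd4, and 13 in cmExoaCD11b, of which 6 did. Cd40lg was detected in 1.63% of CD8-gated cells in PBS and 0.302% in cmExoaCD11b, and in 0 of the B-lineage cells of either library.

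For CD8, the genes Cd8a and Cd8b1, which encode the alpha and beta chains of the coreceptor, can be set against each other. In PBS, 96 T cells without Cd4 had both, 16 had Cd8a only and 11 had Cd8b1 only, and in cmExoaCD11b the numbers were 218, 58 and 55. If the genes were detected independently of each other, 1.83 cells in PBS and 14.6 in cmExoaCD11b would have missed both, which is 2.44% and 6.71% of the coreceptor-negative cells. A count-based estimate of the number of cells with 0 UMIs, from the numbers with 1 and with 2, was added after the data were seen. Its formula gives a minimum rather than the expected number when cells differ in depth or level, and these cells differed in depth. It gave 55.8 missed CD4 cells and 7.80 missed CD8 cells in PBS, together 84.8% of the 75 coreceptor-negative cells. In cmExoaCD11b it gave 78.9 and 32.5 cells, together 51.1% of the 218. Both estimates are descriptions that rest on their assumptions, and neither says which cell was missed.

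Constant genes of the alpha-beta receptor were present in nearly all coreceptor-negative cells. At least 1 UMI of Trac, Trbc1 or Trbc2 was found in 71 of 75 cells in PBS (94.7%, 86.9 to 98.5) and in 202 of 218 in cmExoaCD11b (92.7%, 88.4 to 95.7), against 95.1% to 98.4% of CD4-gated and CD8-gated cells. The alpha constant gene Trac alone was less frequent, in 76.0% and 69.7% of coreceptor-negative cells against 93.0% and 91.8% of CD4-gated and 88.6% and 79.5% of CD8-gated cells. At a common 1000 UMIs per cell the shares with Trac were 49.3% and 39.9% in coreceptor-negative cells, 50.4% and 47.4% in CD4-gated cells and 39.8% and 42.3% in CD8-gated cells, so that in PBS the coreceptor-negative cells no longer had the lowest share, and in cmExoaCD11b they still did. No receptor constant gene was seen in 3 cells of PBS and 13 of cmExoaCD11b, whose medians were 1460 and 2091 UMIs. Ncr1 and Klrb1c, markers of natural killer cells, were at 0 in those 16 cells in both libraries, and Rora was present in 3 and 6 of them.

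Trdc marked 7 coreceptor-negative cells in PBS (9.33%, 3.84 to 18.3) and 18 in cmExoaCD11b (8.26%, 4.97 to 12.7). The shares did not differ beyond counting error. Trdc was found in 0.775% and 0.862% of CD4-gated cells, in 3.25% and 0.604% of CD8-gated cells and in 0 of 256 and 1 of 337 B-lineage cells. Thinned to 1000 UMIs, the Trdc shares were 8% in PBS and 3.21% in cmExoaCD11b among coreceptor-negative cells, and at most 1.63% among CD4-gated or CD8-gated cells. Of all CD3-gated T cells with Trdc, 7 of 12 in PBS and 18 of 22 in cmExoaCD11b were coreceptor-negative. A gamma constant gene (Tcrg-C1, Tcrg-C2 or Tcrg-C4) accompanied Trdc in 6 of 7 cells and in 14 of 18. Gamma constant genes without Trdc were no mark of these cells, being present in 2.67% and 7.34% of coreceptor-negative cells and in 16.3% and 13.9% of CD8-gated cells.

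The 25 Trdc-positive cells differed widely in depth of evidence. Their Trdc counts ran from 2 to 32 UMIs in PBS, where all 7 cells had at least 2, and from 1 to 19 in cmExoaCD11b, where 12 of 18 did. Trac was also present in 2 of the PBS cells and 4 of the cmExoaCD11b cells, and Trbc1 or Trbc2 in 6 and 15. Variable genes were rare: over all coreceptor-negative cells Trgv2 was seen in 11 cells, Tcrg-V1 in 4, Trdv2-2 in 3 and Trdv4 in 2, while Tcrg-V4 and Tcrg-V6 were at 0. Trgv2 was also seen in 21 CD8-gated cells.

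Among Trdc-positive cells, type 17 genes and the chemokine gene Ccl5 were found in different cells. At least 1 UMI of Il17a, Il17f or Il23r without Ccl5 was found in 8 cells, Ccl5 without a type 17 gene in 14, both in 1 and neither in 2. The 8 type 17 cells all held Rora, a nuclear receptor of IL-17 cells (1 to 16 UMIs, median 9), 6 of them held Cd163l1, a scavenger receptor of gamma-delta cells, 7 Blk, a kinase of IL-17-producing gamma-delta cells, and 5 Zbtb16. None of the 8 held Nkg7. The 14 Ccl5 cells held 6 to 355 Ccl5 UMIs with a median of 63.5, and 12 of them held Nkg7, a protein of cytotoxic granules, 7 Gzma or Gzmb and 7 the natural killer receptors Klrb1c or Ncr1, but Cd163l1 and Blk were at 0. The groups were not separate in every marker: 6 of the 14 Ccl5 cells held Rora and 3 held Zbtb16, and 1 of the 8 type 17 cells held Gzma or Gzmb. The only cell with both had 1 Ccl5 UMI beside 20 of Il17a. These groupings were seen in the same cells they describe, and 5 of the 14 Ccl5 cells rest on 1 Trdc UMI.

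By library, type 17 genes were present in 4 of 7 Trdc-positive cells in PBS and 5 of 18 in cmExoaCD11b, and Ccl5 in 3 of 7 and 12 of 18. The summed Trdc level of coreceptor-negative cells in PBS was 323 CPM, a gene's UMIs scaled to the total of the cells summed (264 to 392.4), and in cmExoaCD11b 88.3 CPM (70.9 to 109). Cd163l1 stood at 120 and 24.1 CPM and Tcrg-C1 at 88.7 and 25.1 CPM, and these were 3 of the 12 genes with the smallest ratio of cmExoaCD11b to PBS. In PBS, 1 cell held 31.4% of the Trdc UMIs, 1 held 52.6% of the Cd163l1 UMIs and 1 held 50% of the Tcrg-C1 UMIs. The ratios without the highest cell of each library were 0.3123, 0.2501 and 0.4434. The share of cells with at least 2 Trdc UMIs was 9.33% in PBS and 5.50% in cmExoaCD11b, and with cells thinned before the gate the Trdc shares were 5.43% and 0.617%. Il17a was at 85.6 CPM in PBS and 7.03 CPM in cmExoaCD11b, from 3 cells in each, and 1 cell held 74.1% of its PBS UMIs.

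**Figure D2:**
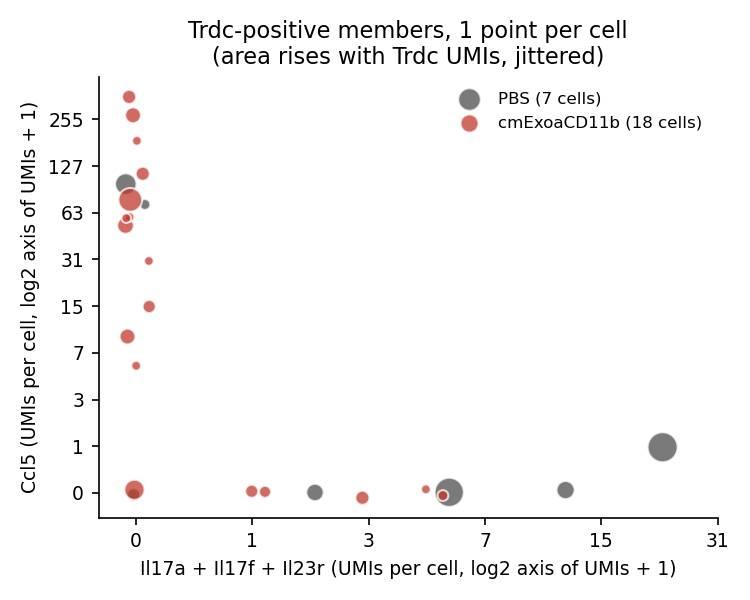
Each point is 1 of the 25 Trdc-positive coreceptor-negative cells (7 PBS, grey; 18 cmExoaCD11b, red), placed by its UMIs of Il17a, Il17f and Il23r together (x) and of Ccl5 (y), both on log2 axes of UMIs + 1 with jitter; the point area rises with Trdc UMIs. The points lie along the axes, with 1 cell positive for both.

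Compared with the other coreceptor-negative cells, Trdc-positive cells held Tcrg-C1 at 792 against 3.55 CPM in PBS and 127 against 5.96 CPM in cmExoaCD11b, and Cd163l1 at 1056 against 7.11 and 114 against 7.15 CPM. Tmem176b, a membrane protein of type 17 lymphocytes, stood at 821 against 35.5 CPM in PBS and 140 against 31 CPM in cmExoaCD11b, and its partner Tmem176a at 763 against 3.55 and 88.9 against 29.8 CPM. Gpx1, Pdia6, Manf, Atg101, Vdac2, Plin2 and Rgcc, the other higher genes, took between 66.7% and 95.2% of their UMIs in the Trdc-positive cells of cmExoaCD11b from 1 cell. On the lower side, the interferon-stimulated genes Ifit2, Ifi27l2a and Ifih1 had 0 UMIs in the 7 Trdc-positive cells of PBS, and in cmExoaCD11b stood at 19.1 against 435 CPM for Ifit2, 25.4 against 349 CPM for Ifi27l2a and 44.4 against 551 CPM for Ifih1. In PBS, only 9 of 75 coreceptor-negative cells held Ifit2, and 1 cell held 59.9% of its UMIs. Isg15 was found in 5 of the 7 Trdc-positive cells of PBS. The whole interferon-stimulated list summed to 4987 against 6374 CPM in PBS and 3442 against 10425 CPM in cmExoaCD11b. Cd6, a costimulatory receptor of alpha-beta T cells, had 0 UMIs in PBS and stood at 25.4 against 261 CPM in cmExoaCD11b. In cmExoaCD11b, 3 cells of 10000 or more UMIs held 60.2% of the UMIs of the Trdc-positive cells. Without such cells Tcrg-C1 stood at 143 against 6.55 CPM, Cd163l1 at 128 against 7.86 CPM, Ifit2 at 47.8 against 461 CPM and Cd6 at 31.9 against 278 CPM. Plin2 then turned to the lower side (a ratio of 0.429), and Rgcc, Vdac2 and Pdia6 stood under 2-fold (1.15, 1.51 and 1.99).

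Classes were then taken in order from single genes, Trdc first, then Zbtb16, then the type 17 genes, Foxp3, and Ncr1 or Klrb1c. Beside the Trdc cells, Zbtb16 marked 1 cell in PBS and 4 in cmExoaCD11b, and type 17 genes 0 and 2. A single UMI was enough for a class, and B-lineage cells gave a background reading. Zbtb16 was found in 0.391% and 2.67% of them, against 5.33% and 4.59% of all coreceptor-negative cells. The latter shares include Trdc-positive cells, and the Zbtb16 class alone was 1.33% of coreceptor-negative cells in PBS and 1.83% in cmExoaCD11b. The share of the class was thus not above the B-lineage share in cmExoaCD11b. Its 4 cells there are still counted in the innate-like share. B-lineage cells of that library were deeper (a median of 7562 against 3817 UMIs), and the background shares of this paragraph were not matched for depth. In cmExoaCD11b, Ncr1 was found in 0.593% of B-lineage and 0.459% of coreceptor-negative cells, so that its share was not above background, and Klrb1c in 0.593% against 8.72%, while Il17a, Il17f, Il23r and Foxp3 were at 0 in the B-lineage cells of both libraries. The innate-like classes together held 8 of 75 cells in PBS (10.7%, 4.72 to 19.9) and 24 of 218 in cmExoaCD11b (11.01%, 7.18 to 15.9), with a ratio of 1.03 (0.449 to 2.66). With at least 2 UMIs over the genes of these classes the shares were 9.33% and 7.80%. Among CD4-gated cells the same classes held 2.33% and 3.88%, and among CD8-gated cells 6.50% and 1.51%. Foxp3 marked 3 and 5 further cells and Ncr1 or Klrb1c 4 and 12. None of these genes was seen in the remaining 237 cells, 60 in PBS and 177 in cmExoaCD11b, which is 80.9% of the coreceptor-negative cells (75.9 to 85.2). Rora, a marker of innate-like cells, was detected in 62.7% and 60.1% of coreceptor-negative cells, against 82.9% and 68.1% of CD4-gated and 52.8% and 55.9% of CD8-gated cells. Its level was higher than in all T cells with a coreceptor UMI, at 583 against 395 CPM in PBS (1.48, 1.25 to 1.73) and 523 against 362 CPM in cmExoaCD11b (1.44, 1.30 to 1.60), below the 2-fold call. Without cells of 10000 or more UMIs these ratios were 1.14 and 1.39.

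To see which cells they resembled, the 20 nearest CD4-gated or CD8-gated cells of the same library were found for each coreceptor-negative cell. The search used variable genes without Cd4, Cd8a, Cd8b1, Trac, Trdc and the genes whose names begin with Trb or Tcrg-. Other variable genes of the receptors, such as Trgv2, were not left out by name. A cell was placed on a side when at least 14 of the 20 came from it. In PBS, 40 of 75 cells were on the CD4 side (53.3%), 12 on the CD8 side (16%) and 23 mixed (30.7%). In cmExoaCD11b, 96 of 218 were on the CD4 side (44.0%), 72 on the CD8 side (33.0%) and 50 mixed (22.9%). The interval of the CD8 side ran from 8.55% to 26.3% in PBS and from 26.8% to 39.7% in cmExoaCD11b. The labelled cells were 129 CD4-gated and 123 CD8-gated in PBS but 232 and 331 in cmExoaCD11b. With equal numbers of both kinds drawn, the CD8 side held 16% of coreceptor-negative cells in PBS and 27.1% (21.3 to 33.5) in cmExoaCD11b, and these intervals overlapped. The same call returned 72.9% and 72.8% of CD4-gated cells to the CD4 side and 64.2% and 74.0% of CD8-gated cells to the CD8 side.

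**Figure D3:**
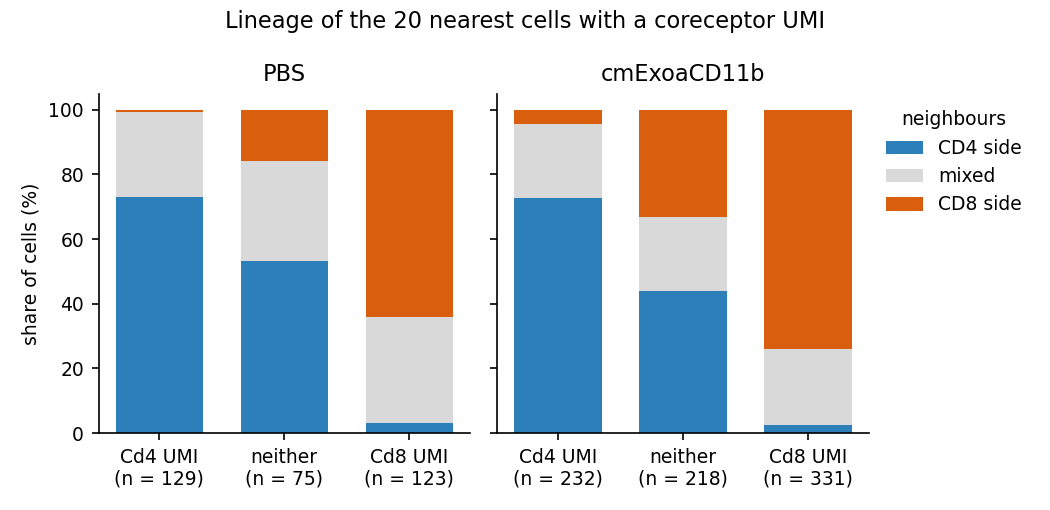
Share of cells (percent, y axis) whose nearest labelled cells were mostly CD4-gated (blue), mostly CD8-gated (orange) or mixed (grey), for T cells with a Cd4 UMI only, with neither and with a Cd8 UMI only, in each library. Coreceptor-negative cells lay between the CD4-gated and CD8-gated cells, with 16% on the CD8 side in PBS and 33.0% in cmExoaCD11b.

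Genes of the CD4 and CD8 lineages differed by side within the coreceptor-negative cells, as they may since these genes help to define the neighbours. Cd40lg was found in 15 of 40 CD4-side cells of PBS and 26 of 96 of cmExoaCD11b, but in 0 of 12 and 0 of 72 CD8-side cells. Icos, a costimulatory receptor of activated helper cells, stood at 388 and 397 CPM on the CD4 side and at 128 and 93.6 CPM on the CD8 side. Gzmb, the granzyme of cytotoxic cells, stood at 47.0 and 141 CPM on the CD4 side and at 1131 and 910 CPM on the CD8 side, and Klrd1, the CD94 chain of an inhibitory receptor, at 29.4 and 49.6 against 456 and 431 CPM. The Foxp3 class had 2 of 3 cells in PBS and 5 of 5 in cmExoaCD11b on the CD4 side, and the Ncr1 or Klrb1c class 3 of 4 and 10 of 12 on the CD8 side. Trdc-positive cells fell on both sides, with 5 of 7 on the CD4 side in PBS and 9 of 18 on the CD8 side in cmExoaCD11b. Of the 237 cells without a class gene, 48.5% were on the CD4 side, 24.9% on the CD8 side and 26.6% mixed.

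Set against all T cells with a coreceptor UMI in the same library, coreceptor-negative cells were at least 2-fold higher in both libraries for 5 of 6007 genes (0.0832%) and at least 2-fold lower for 57 (0.949%), with 1 UMI added to each sum and genes of the gate left out. With each cell thinned to 1000 UMIs the counts were 48 higher and 30 lower. Thinning left fewer UMIs per gene, and the added UMI weighs more in the smaller sum of the coreceptor-negative cells. These counts therefore do not show whether the excess of lower genes was kept. By a mean over cells, without thinning, 3 were higher and 24 lower. The 5 higher genes of the unthinned sums were Trdc, Igfbp4, Ikzf2, Tmem64 and Cox10. In PBS the last 2 passed only through the added UMI, each with 13 against 40 UMIs and a ratio of 1.99 (0.976 to 3.79) without it. Ikzf2, which encodes Helios, a transcription factor of regulatory and innate-like T cells, was at 263 CPM in coreceptor-negative cells against 126 CPM in T cells with a coreceptor in PBS (2.09-fold, 1.61 to 2.69) and at 370 against 154 CPM in cmExoaCD11b (2.40-fold, 2.10 to 2.74). It was found in 20 and 65 coreceptor-negative cells. Igfbp4, a gene of naive T cells, was at 72.9 CPM in PBS but came from 1 cell. In cmExoaCD11b it was found in 10 coreceptor-negative cells, and 1 cell held 53.3% of its UMIs. The gene of carboxypeptidase M, Cpm, stood at 615 against 86.0 CPM in PBS and 206 against 114 CPM in cmExoaCD11b.

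The genes lower in coreceptor-negative cells included genes of dividing cells and the class II genes of antigen-presenting cells. Of 12 cell cycle genes 8 were lower in both libraries, among them Mki67, a marker of proliferation (3.17 against 35.7 CPM in PBS, 14.05 against 76.02 CPM in cmExoaCD11b), and Ube2c, an enzyme of mitotic exit (9.51 against 78.8 and 9.03 against 129 CPM). The class II genes H2-Aa, H2-Ab1 and H2-Eb1 were between 0.0672 and 0.238 of the level in T cells with a coreceptor, and the chemokine gene Cxcl3 at 0.20 and 0.130. T cells with a coreceptor UMI included cells of 10000 or more UMIs at 14.7% in PBS and 12.1% in cmExoaCD11b, against 0 and 4.13% of coreceptor-negative cells. The class II ratios without those cells ran from 0.664 to 1.26, on too few UMIs to count in the comparison. Without those cells, 4 of 4528 genes were lower (Cxcl3, Tnfsf9, Gzmk and Gm44174) and 4 higher (Trdc, Ikzf2, Tmem176a and Tmem176b), and 3 of the 57 lower genes remained. Only 2 cell cycle genes were then abundant enough to compare, and neither was 2-fold lower.

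Between treatments, 189 of 4316 genes (4.38%) were at least 2-fold higher in the coreceptor-negative cells of cmExoaCD11b than of PBS and 52 (1.2%) at least 2-fold lower, among genes with at least 50 UMIs over both. The median log2 ratio of all these genes was 0.06. With each cell thinned to 1000 UMIs, 316 genes were at least 2-fold higher and 331 at least 2-fold lower. Thinning left fewer UMIs per gene, and the added UMI weighs more in the smaller PBS sum. These counts therefore do not show whether the excess of higher genes was kept. By a mean over cells, without thinning, 178 were higher and 92 lower. The sums behind the ratios were 315529 UMIs in PBS and 996162 in cmExoaCD11b.

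Interferon-stimulated genes stood higher in the treated library as a group. Of 34 listed genes 32 could be compared, 18 were at least 2-fold higher and 0 at least 2-fold lower, and the median log2 ratio was 1.15. In T cells with a coreceptor UMI 17 of the 32 were at least 2-fold higher, and 13 were so in both. Rsad2, which encodes the antiviral enzyme viperin, stood at 41.2 CPM in PBS (6 of 75 cells) and 217 CPM in cmExoaCD11b (60 of 218 cells), a ratio of 5.26 (3.01 to 10.0). Bst2, the virus-tethering protein tetherin, stood at 60.2 and 247 CPM, a ratio of 4.10 (2.57 to 6.93). Thinned to 1000 UMIs per cell, Rsad2 was seen in 2.67% of coreceptor-negative cells in PBS and 15.6% in cmExoaCD11b, against 2.34% and 3.56% of B-lineage cells, and Bst2 in 4% and 19.7%, against 5.86% and 12.2%. B cells can express both genes, so their shares are no pure reading of free RNA, and the PBS share of Bst2 lay below theirs. Usp18, a negative regulator of interferon signalling, had 2 UMIs in PBS and 66 in 41 cells of cmExoaCD11b. Oasl1 had 3 and 121 UMIs and Slfn5 4 and 96. With 1 UMI added, the ratios of Rsad2, Bst2, Usp18, Oasl1 and Slfn5 were 4.91, 3.91, 7.07, 9.66 and 6.14 in coreceptor-negative cells. They were 1.46, 2.64, 3.89, 1.77 and 4.99 in T cells with a coreceptor UMI. Over the 32 genes the median ratio was 2.22 in coreceptor-negative cells and 2.11 in T cells with a coreceptor UMI. These differences were not tested.

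The group did not move as one. Isg15, its most abundant member, was at 1112 and 1364 CPM, a ratio of 1.23 (1.09 to 1.38). With 1 UMI added, as in all ratios of single genes given here without an interval, Ifit1 was at 1.28 and Cxcl10 at 1.31. Ifit2 was at 482 CPM in PBS and 369 CPM in cmExoaCD11b, a ratio of 0.767 (0.633 to 0.933), although leaving out the highest cell of each library turned it to 1.56. Ifit1bl1 was at 105 and 57.2 CPM, a ratio of 0.547 (0.350 to 0.867), and at 1.20 without those cells. In T cells with a coreceptor UMI the ratios were 1.94 for Ifit2 and 3.69 for Ifit1bl1, and the difference from the coreceptor-negative cells was not tested. The 32 ratios ran from 0.540 to 9.66, and 29 lay above 1.

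**Figure D4:**
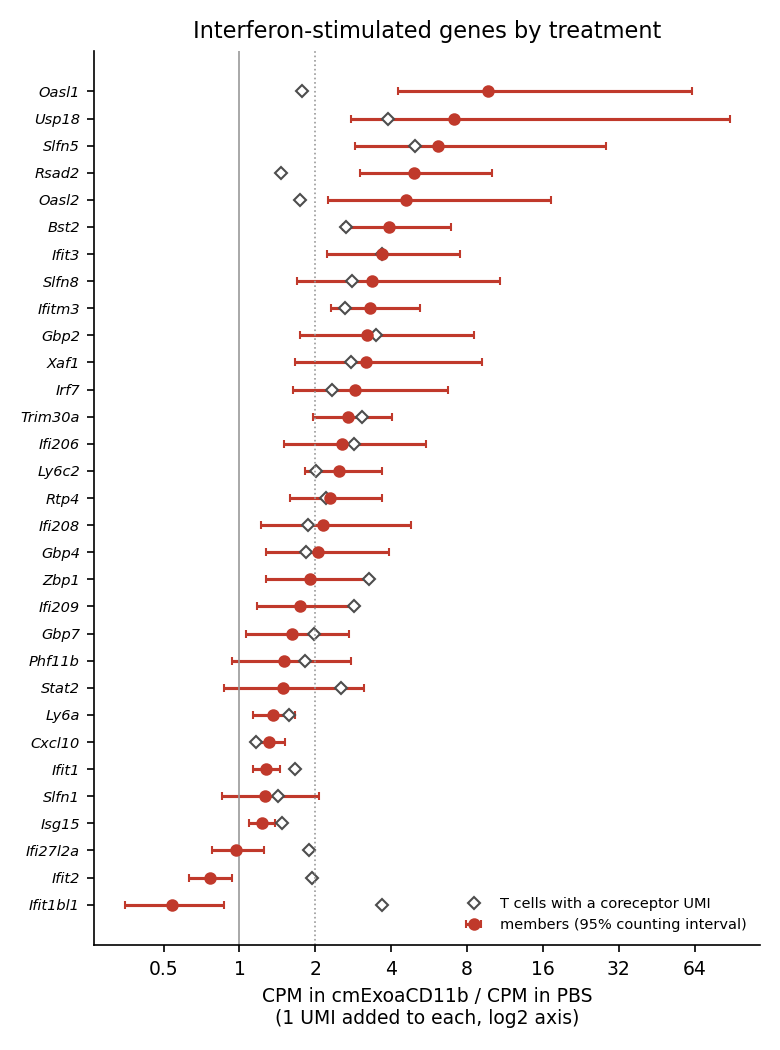
Ratio of CPM in cmExoaCD11b to CPM in PBS (x, log2 axis, 1 UMI added to each sum) for 31 of the interferon-stimulated genes in coreceptor-negative cells (red; 95% counting intervals of the ratio without the added UMI) and in T cells with a coreceptor UMI (open diamonds). The solid line marks 1 and the dotted line 2; 18 red points lie at or above 2, from Gbp4 to Oasl1.

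The summed level of the list in coreceptor-negative cells in PBS was 6224 CPM (5952 to 6506), and in cmExoaCD11b it reached 9321 CPM (9132 to 9512). It was 7234 and 10703 CPM in CD4-gated cells and 3285 and 8210 CPM in CD8-gated cells. In droplets of at most 100 UMIs, a reading of free RNA, the list summed to 3209 CPM in PBS and 5917 CPM in cmExoaCD11b, a ratio of 1.84 beside 1.497 in the coreceptor-negative cells, and the part of free RNA in the difference was not tested. The median coreceptor-negative cell gave 0.268% of its UMIs to the list in PBS and 0.612% in cmExoaCD11b. In the 237 cells without a class gene the sum was 6437 and 11035 CPM. In Trdc-positive cells it was 4987 CPM (7 cells) and 3442 CPM (18 cells), or 4957 CPM in the 15 treated cells under 10000 UMIs. The difference between Trdc-positive and other cells was not tested, and 45.9% of the sum of Trdc-positive cells in PBS came from 1 cell.

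**Figure D5:**
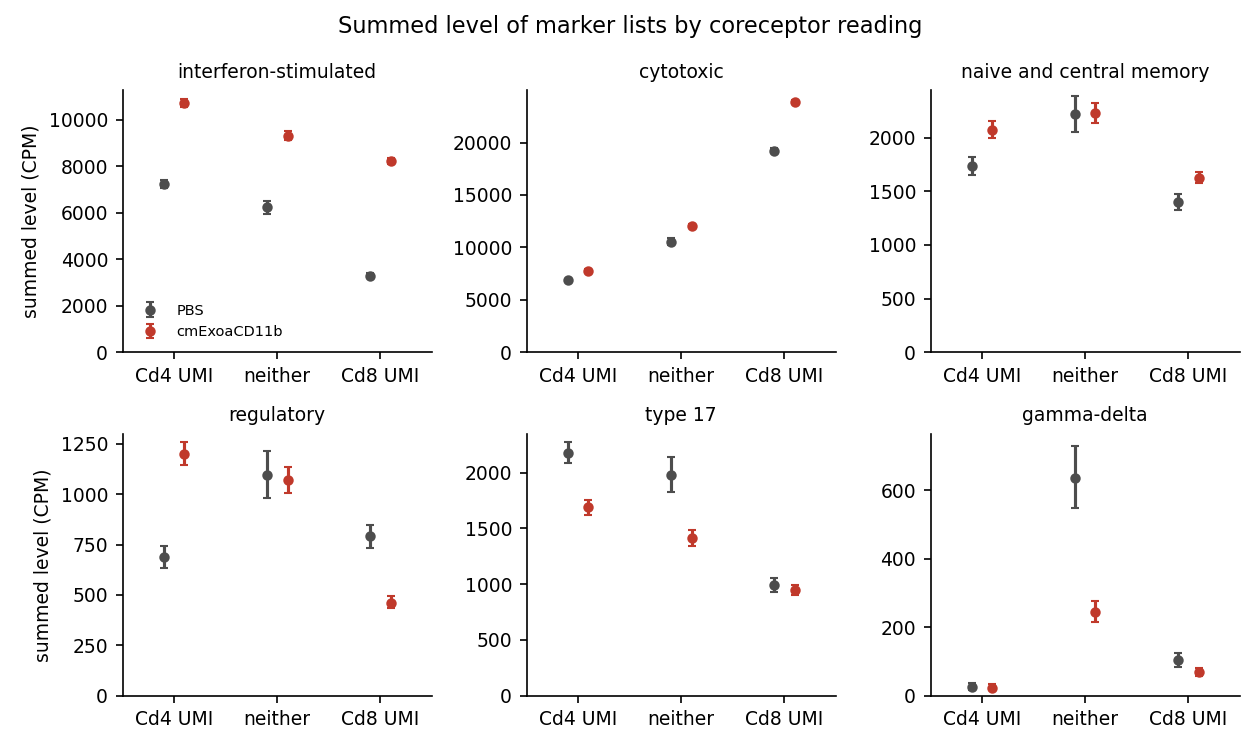
Summed level (CPM, y axis from 0) of 6 gene lists in T cells with a Cd4 UMI only, with neither and with a Cd8 UMI only, for PBS (grey) and cmExoaCD11b (red); bars are exact Poisson 95% intervals. Coreceptor-negative cells lie between the CD4-gated and CD8-gated cells for the cytotoxic list (10541 CPM in PBS and 12059 CPM in cmExoaCD11b) and above both for the gamma-delta list (634 and 245 CPM).

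Cytotoxic genes were compared as a list in the same way. Of 14 compared genes 2 were at least 2-fold higher, Gzma and the transcription factor gene Tbx21, and 1, the chemokine gene Ccl3, at least 2-fold lower, with a median log2 ratio of 0.39. Gzma, a granzyme, stood at 174 CPM in PBS and 660 CPM in cmExoaCD11b, a ratio of 3.78 (2.87 to 5.08), and 74.5% of its PBS UMIs came from 1 cell. Gzmb was at 260 and 354 CPM (1.36, 1.07 to 1.76), with 57.3% of its PBS UMIs in 1 cell, and its ratio was 2.82 without the highest cell of each library. Ccl3 had 41.4% of its PBS UMIs in 1 cell, and its ratio of 0.486 likewise became 0.667, short of the call. Ifng stood at 409 and 579 CPM (1.42, 1.17 to 1.73) and Ccl5 at 6519 and 6803 CPM (1.04, 0.993 to 1.10). Among 4 compared checkpoint genes Tox was at least 2-fold higher. Of 5 tissue residency genes, Rgs1, a regulator of chemokine receptor signalling, was at least 2-fold lower. None of the 7 regulatory, 5 CD4 helper, 5 type 17 or 3 alpha-beta receptor genes passed the fold in either direction. Trac was at 713 and 474 CPM (0.664, 0.566 to 0.782) and Trbc2 at 1087 and 696 CPM (0.640, 0.561 to 0.730).

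The 12 genes with the largest ratios mixed those widely spread with those of single cells. Ctsg, Prtn3, Elane, Mpo and Ms4a3 ranged from 153 to 701 CPM in cmExoaCD11b, against 9.51 to 28.5 CPM in PBS, but between 91.4% and 96.3% of their treated UMIs came from the 59715-UMI cell named above. Without cells of 10000 or more UMIs their ratios (1 UMI added) lay between 0.764 and 1.75. Saa3, an acute-phase protein, went from a ratio of 9.61 to 0.891 without those cells. Il4, the helper type 2 cytokine, had 0 UMIs in PBS and 65 in cmExoaCD11b, where 3 cells held all of them and 1 cell 56.9%. In T cells with a coreceptor UMI Il4 likewise had 0 UMIs in PBS and 89 in cmExoaCD11b, in 11 cells. Oasl1, Usp18, Slfn5 and Ifi213 were each found in 41 to 79 treated cells and had ratios between 6.17 and 8.79 without the largest cells. At the low end, Phlda1, an early-response gene, stood at 517 and 155 CPM (0.299, 0.239 to 0.375), Cpm at 615 and 206 CPM (0.335, 0.274 to 0.409), and Il1b at 266 and 96.4 CPM (0.362, 0.267 to 0.491), with 66.7% of its PBS UMIs from 1 cell.

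Markers of other cell types were present and some lists differed between treatments. Macrophage and monocyte genes summed to 529 CPM in PBS and 936 CPM in cmExoaCD11b, with Lyz2 the most abundant (177 and 409 CPM), and 3 of 5 compared genes were at least 2-fold higher, among them Lyz2 and Ly6c2, the latter also on the interferon-stimulated list. Of the 12 listed genes, C1qa was at 0 by the gate, and Adgre1, Mrc1 and Vcan were at 0 in PBS. Without cells of 10000 or more UMIs the treated sum was 547 CPM and the Lyz2 ratio 1.09. Neutrophil genes summed to 3787 and 3520 CPM, with S100a9 the most abundant (1280 and 1201 CPM, in 74 of 75 and 213 of 218 cells), where 2 of 7 compared genes (Il1b and G0s2) were at least 2-fold lower. In PBS, 1 cell held 66.7% of the Il1b UMIs and 1 held 37.1% of the G0s2 UMIs, and without the highest cell of each library the ratios were 0.786 and 0.572, short of the call. B and plasma cell genes summed to 292 and 581 CPM, with Igkc the most abundant (196 and 465 CPM), while Cd79a was at 0 by the gate. In the droplets of free RNA, the PBS library gave 8982 CPM for B and plasma genes, 14591 CPM for macrophage genes and 95344 CPM for neutrophil genes. The cmExoaCD11b library gave 17617, 7107 and 109043 CPM for them. Tumor epithelial genes summed to 47.5 and 17.1 CPM, dendritic cell genes to 171 and 112 CPM and mast cell and basophil genes to 6.34 and 22.1 CPM. The part of these signals in the differences above was not tested.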

How the data were processed

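Droplet-based 3′ single-cell RNA libraries of PBS and cmExoaCD11b tumors, 1 per group, were analysed. The values are whole-number UMI counts per gene and barcode, and the authors deposited them as unfiltered matrices made with Cell Ranger 7.1.0 per the file headers. The genome build is not given in the sources used here. No column of per-sample values was left unused (0). The coreceptor-negative cells and the gene lists were chosen with earlier results of these data known.

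Counts were read with Python 3.11.15, numpy 2.4.6, scipy 1.17.1, pandas 2.3.3 and scanpy 1.11.5, and plotted with matplotlib 3.10.9. UMIs were summed over the cells of a group and given as CPM. Ratios of single genes add 1 UMI to each sum unless an interval follows. Genes were compared with at least 50 UMIs (20 for Trdc-positive cells), and a 2-fold ratio served as the call, with no test. Intervals are exact at 95%: Clopper-Pearson for shares, Poisson for sums and conditional binomial for ratios. B-lineage cells had at least 2 Cd79a UMIs. Neighbours came from 18 principal components of 2000 variable genes.

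The text names genes of the lists, the 12 largest and 12 smallest treatment ratios, the 10 highest and 10 lowest genes against T cells with a coreceptor, and the 12 highest and 6 lowest of Trdc-positive cells, leaving out genes of the gate, and describes some of them as counts. The computations were tested on simulated data. Alternatives changed the gates, thinning, neighbours, UMI minimum, doublets and the largest cells. Some genes of the lists are not reported here, and 1 of them was left out of the type 17 class. Ly6c2 stands in the macrophage and interferon-stimulated lists.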

Additional observations from a re-analysis of the deposited data

Results flagged for a closer look

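Basp1, a membrane-associated protein, went past 2-fold in opposite directions in coreceptor-negative cells and in T cells with a coreceptor UMI. Its ratio of cmExoaCD11b to PBS was 2.72 in coreceptor-negative cells, from 11 UMIs in 8 cells and 102 UMIs in 15 cells, and 0.432 in the other T cells. The difference was not tested.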

How the results depend on the processing

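No paired analysis was possible because each group was 1 library of other pooled mice and no test was run. Of 215 recomputed values 183 stayed within the counting interval, or within 1.5 times for counts, and 32 moved. The coreceptor-negative share of T cells was 45.2% in PBS and 47.9% in cmExoaCD11b when 1 coreceptor UMI was allowed (with 90 genes then lower by treatment), 58.2% and 56.4% when cells were thinned before the gate, and 23.9% in cmExoaCD11b with at least 5 CD3 UMIs, and its ratio lay between 0.969 (thinned before the gate, on the other side of 1) and 1.24. Thinning before the gate also lowered the cmExoaCD11b shares to 0.617% for Trdc (ratio 0.114) and 1.85% for the innate-like classes (ratio 0.284). Missed CD8 cells came to 12.8% of coreceptor-negative cells in PBS under 4000 UMIs, and to 10.4% and 14.9% by the count-based estimate. The CD4 side held 40% and 36.7% with 50 neighbours, and 52.3% in cmExoaCD11b with equal numbers of labelled cells. Counts of genes past the fold moved most. By treatment, 468 were higher and 218 lower from 20 UMIs, 83 and 20 from 100 UMIs, 316 and 331 after thinning, which swaps their order, and 92 were lower by a mean over cells. Against T cells with a coreceptor, 31 were higher and 119 lower from 20 UMIs, 1 and 25 from 100 UMIs, 48 and 30 after thinning (their order also swapped), and 3 and 24 by a mean over cells, and 4 were lower without cells of 10000 or more UMIs. The UMI minimum changes which genes are compared; for the other settings the cause was not tested. Interferon-stimulated genes past the fold numbered 13 to 20, with a median log2 ratio of 0.84 to 1.44, over 15 alternatives. Leaving out cells of 10000 or more UMIs, leaving out the highest cell of each gene and the count-based estimate were chosen after seeing the data, also for the Trdc-positive cells. Of the 189 genes higher by treatment, 128 kept a 2-fold ratio, with the UMI minimum not applied again, without the largest cells and 170 without each gene's highest cell, and of the 52 lower, 37 and 32 did. A count of 0 among the 75 cells of PBS allows up to 4.80% of cells with a UMI, and sets no limit on cells that express a gene.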
